A study of Mus musculus with 6 samples.

Results

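The replication-dependent histone genes were examined in CD4 T cells of mice labelled wild type (WT) or knockout (KO) for Prmt5, an enzyme that dimethylates arginines of histones and other proteins. Members were the genes whose GENCODE M21 symbol begins with Hist1h, Hist2h, Hist3h or Hist4h, and 70 of 54532 genes in the deposited table met this rule. They comprised 6 genes of the linker histone H1 and 20 of H2A, 19 of H2B, 12 of H3 and 13 of H4, the 4 core histones. Of these, 56 lie on chromosome 13, 10 on chromosome 3, 3 on chromosome 11 and 1 on chromosome 6. Those on chromosome 13 lie in the large cluster, except Hist1h2al, which lies far from it at chr13:51202727-51203065. The annotation calls 67 of them protein coding, and Hist1h2aj, Hist1h2al and Hist3h2bb-ps pseudogenes.

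Chromosomal DNA is copied in S phase, and the histones that package the new copy are made in the same period from these clustered genes. Their messages are the textbook exception to polyadenylation: the message ends in a short stem-loop that is bound by SLBP, and a complex containing the U7 small nuclear RNA and the proteins LSM10 and LSM11 guides the cut behind it. Transcription of the clusters depends on NPAT, and when replication stops the messages are degraded. In resting T cells they are therefore scarce, and in dividing T cells abundant. Libraries made from polyadenylated RNA lose most of them, whereas here total RNA was depleted of ribosomal RNA, a method that does not select for a poly(A) tail.

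Each group held 3 libraries, WT 1, WT 2 and WT 4 against KO 1, KO 4 and KO 5, and values of a gene are given below in that order. WT mice carried the genotype iCD4-PRMT5fl/fl and KO mice iCD4-PRMT5 delta/delta, all on the strain C57BL/6. What the prefix iCD4 stands for, how and for how long Prmt5 was deleted, and the age of the animals are not given in the sources used here. Cells were whole CD4 T cells of spleen and lymph nodes. The treatment label of every sample gives antibodies to CD3 and CD28 for 48 h, but every title ends in the word rest, so the state of the cells is not settled by the labels. A code in the sample descriptions places WT 1, WT 2 and KO 1 in library series 22 and WT 4, KO 4 and KO 5 in series 24. The series' design text calls the samples biological replicates, and p-values here measure the spread between these samples only.

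Values are robust FPM, fragments per gene scaled by the authors' size factors, with no correction for gene length, and the sequencing depth behind them is unknown. The targeted gene Prmt5 measured 34.9, 41, 43.9, 24.4, 23.8 and 21.5, lower in every KO library than in any WT library. Its log2 change was -0.78 (SE 0.137), not a call (limma adjusted p = 1), and it became one only in the fit without WT 1 and KO 4 together (-0.88, limma adjusted p = 2.14e-05). The 10 CD4 T cell markers summed to 3079.8 to 4023.7, and Cd4 alone to 388.8 to 465. A list of 11 T cell activation genes summed to 446.2 to 761.5. Within it Cd69 measured 193.2 to 369.4 and Il2ra 42.0 to 63.5. Il2, a cytokine of activated helper T cells, was the lowest of the list with 0.7 to 1.1. These values do not settle the state of the cells. Of the markers of other cells, the 4 globin genes Hba-a1, Hba-a2, Hbb-bs and Hbb-bt were listed at 0 in every library. WT 1 stood apart in its background: 1731 olfactory and vomeronasal receptor genes, not used by T cells, averaged 0.300 FPM per kb of exon there and 0.0145 to 0.0838 in the other libraries. Results that rest on WT 1 or KO 4 are given with and without them.

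The stem-loop is printed here because it is the feature that sets these messages apart. A search of the GENCODE M21 transcripts for the consensus (a stem opening with GG, a loop of pyrimidines and an A, and the matching purines closing in CC) found it in 46 of the 70 genes and in 0.0722% of all other genes. The other 24 members had none in their transcript model, which says only that those letters are not in the modelled sequence. There were 8 forms, each shown once with its flanking bases, 5′ to 3′, with the 16 bases of stem and loop in capitals:
Hist1h1c: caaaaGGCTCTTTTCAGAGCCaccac
Hist1h3f: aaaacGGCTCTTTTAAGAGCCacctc
Hist2h2ac: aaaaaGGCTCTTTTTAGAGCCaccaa
Hist1h3g: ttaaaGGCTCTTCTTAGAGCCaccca
Hist1h4d: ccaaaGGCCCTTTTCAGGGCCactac
Hist1h4j: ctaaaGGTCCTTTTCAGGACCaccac
Hist2h4: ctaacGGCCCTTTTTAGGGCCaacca
Hist1h4a: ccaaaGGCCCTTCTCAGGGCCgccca
The form carried by Hist1h1c occurred in 26 members, and that of Hist1h3f in 6. The form of Hist1h4d occurred in 7, those of Hist1h4j and Hist2h4 in 2 each, and the other 3 in 1 gene each. The letters of the stem split by class: all 12 H4 genes with a stem-loop opened with GGCCC or GGTCC, and all 34 genes of the other classes opened with GGCTC. The search also found a match in H2afx, the gene of the histone variant that marks broken DNA, which the naming rule does not include.
H2afx: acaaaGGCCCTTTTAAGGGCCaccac
Its stem is of the kind seen in the H4 genes.

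The genes of a class are near copies of one another, and this limits what a read count can assign. Every stretch of 50 bases in each member's transcripts was looked up in the transcripts of all other genes. In 5 members, Hist2h2aa1, Hist2h2aa2, Hist2h2bb, Hist2h3b and Hist2h3c1, no stretch was unique. In 19 members under 15% of the stretches were unique, and 7 of these had a mean under 1 FPM. Among the 34 members with at least 50% unique stretches, 3 had a mean under 1 FPM: Hist1h1t, Hist1h2aa and Hist1h2ba, genes known from the testis. Of the 17 members in between, 2 were that low. The values of near-identical members are therefore uncertain one by one, and sums over a class are given beside them. How the authors treated reads that match several genes, and whether counting was by strand, are points not given in the sources used here.

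**Figure D1:**
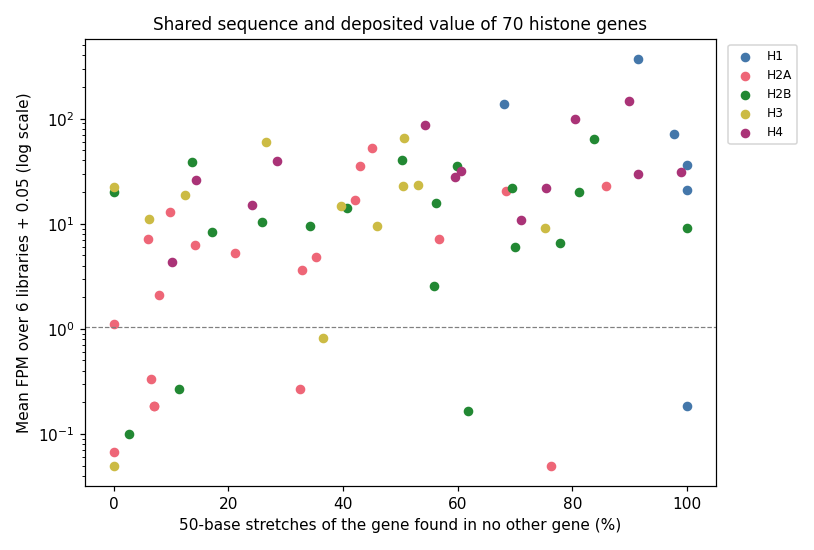
Mean deposited value over 6 libraries (FPM plus 0.05, log axis) against the percentage of 50-base stretches found in no other gene, for the 70 histone genes coloured by class; the dashed line marks a mean of 1 FPM. Of the 12 genes under the line, 7 have under 15% unique stretches.

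A mean of at least 1 FPM over the 6 libraries was required for testing, and 58 of the 70 members passed: 5 H1, 14 H2A, 16 H2B, 10 H3 and all 13 H4. Of the other 12, Hist1h2aa and Hist2h3c1 were listed at 0 in every library. The histone genes were well expressed as a class. Their values summed to 1420, 2317, 2160, 2456, 1558 and 1998 FPM, or 0.149% to 0.268% of all fragments assigned to genes. H1 contributed the most, with class sums of 435.6 to 791.9 FPM, followed by H4 with 373.4 to 681.8. The H2B genes summed to 227.7 to 397.6, the H3 genes to 167.2 to 334.8 and the H2A genes to 139.1 to 255.3.

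Compared per kb of exon, the gene of highest level was Hist1h1c with 235.9 FPM per kb (ENSMUSG00000036181.2, chr13:23738808-23740367, plus strand, GRCm38, 1 exon), which encodes the linker histone H1.2. Next came the H4 genes Hist1h4h with 183.8, Hist1h4d with 128.7, Hist1h4k with 126.4 and Hist1h4c with 121.2 FPM per kb. The highest H2B gene per kb was Hist1h2bn with 102.4, the highest H2A gene Hist2h2ac with 101.3 and the highest H3 gene Hist1h3e with 71.3. Per kb, genes for the same protein thus spanned a wide range, down to 10.3 FPM per kb in Hist4h4. A per-kb value also depends on the gene model. That of Hist4h4 has 2863 bases and that of Hist1h4k 312, while their mean values were 29.4 and 39.4 FPM. Hist1h1d, with 49.3 to 87.3 FPM, came to 9.64 FPM per kb because its model spans 7425 bases. Hist1h1e and Hist1h2be share exon sequence on the same strand, so fragments there cannot be told apart.

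No histone gene passed the test between KO and WT. Of 58 members, 0 were called higher and 0 lower (limma, adjusted p = 1 for each), against 0% and 0% of all 14944 genes tested, so the count is that of the background. At an unadjusted p under 0.05 the members numbered 0, where 0.248% of all genes passed. That share is far below the one this threshold would give if no gene changed. The fit thus passed few genes of any kind, and the 0 does not show that the members were unchanged. None had KO values entirely above or below the WT values, a pattern seen in 1.09% and 1.79% of all genes. The summed value of all members was 1965 ± 479.1 (SD, n = 3) over the WT libraries and 2004 ± 449 (SD, n = 3) over the KO libraries. The median log2 change of the tested members was 0.05, beside 0.01 for all genes. Of the changes, 41 were positive and 17 negative, and this split turned with the scaling and with single libraries: 5 and 53 with ERCC spike-in scaling, which moved the median of all genes to -0.20, 6 and 52 without WT 1, 2 and 55 of the 57 tested without KO 1, and 56 and 2 without WT 4. KO 1 is the only KO library of series 22, and WT 4 the only WT library of series 24. Without KO 1 the fit thus compares the genotypes within series 24 only, and without WT 4 within series 22 only. For 50 of the 58 the 95% interval lay within a change of 2-fold in either direction, as it did for 12714 of 14944 genes. The intervals of the rest reached it.

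**Figure D2:**
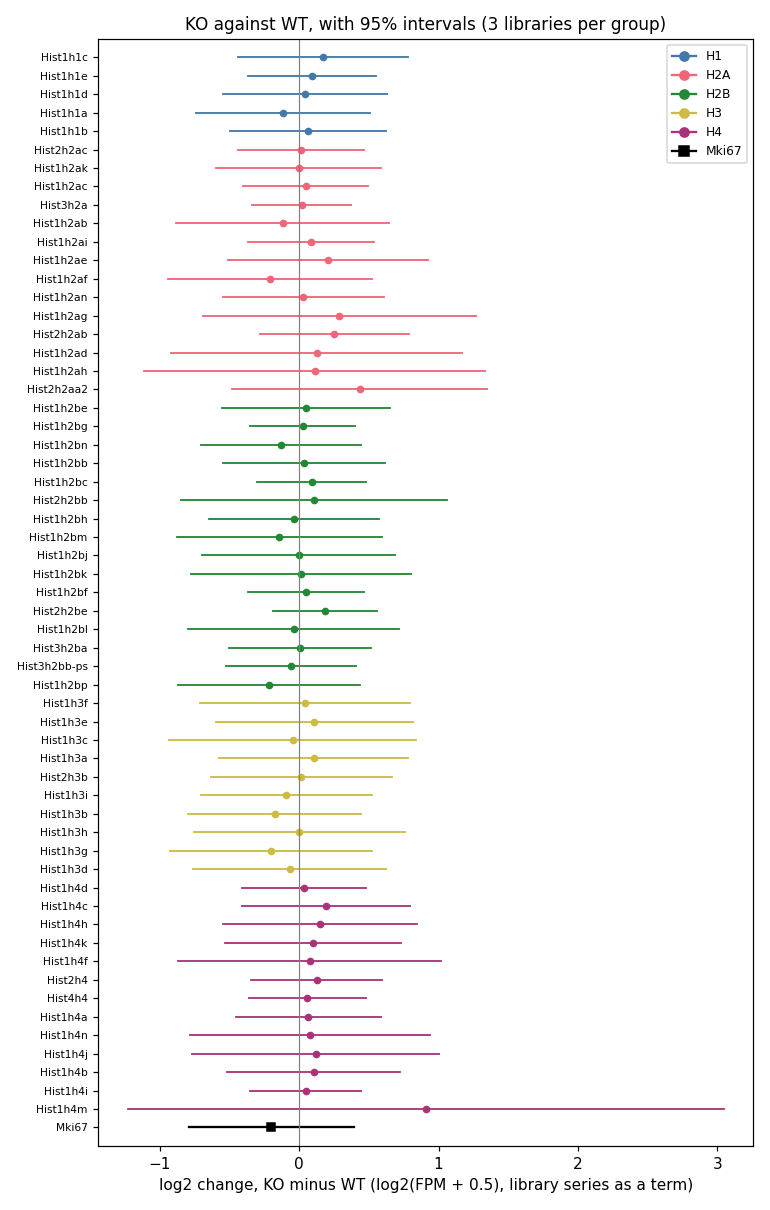
Log2 change of each tested histone gene, KO minus WT, on the log2(FPM + 0.5) scale with library series as a term, coloured by class, with Mki67 last; bars are 95% intervals from limma, 3 libraries per group. Every interval includes 0, and that of Hist1h4m is the widest.

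Among the linker histones, Hist1h1c measured 236.2, 419.5, 403.2, 483, 315.2 and 350.7, and its log2 change was 0.17 (SE 0.263). WT 1 was lowest, KO 1 highest, and the groups overlapped widely. Hist1h1e, the gene of H1.4, measured 98.1, 142.7, 158.2, 158.4, 125.7 and 142.6, with a change of 0.09 (SE 0.199). Hist1h1d, the gene of H1.3, measured 49.3, 71.4, 87.3, 79.7, 54.4 and 87.2, with a change of 0.04 (SE 0.254). In both, WT 1 was again the lowest library. Changes of the 5 tested H1 genes ran from -0.12 to 0.17, and the class sum was 615.8 ± 156.1 (SD, n = 3) over the WT libraries and 652.9 ± 132.4 (SD, n = 3) over the KO libraries.

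H2A and H2B form the dimers that flank the tetramer of H3 and H4 in the nucleosome. Hist2h2ac, the H2A gene of highest value, measured 38.7, 58.0, 60.6, 58.3, 48.3 and 52.2, a change of 0.01 (SE 0.195). Hist1h2ak measured 29.4, 45.4, 35.7, 48.0, 22.1 and 32.9, and Hist1h2ac 21.7, 28.9, 20.2, 29.6, 15.2 and 21.8. In these last 2 genes KO 4 was the lowest library and KO 1 the highest, so the KO group spanned the WT values. Their changes were -0.0046 (SE 0.255) and 0.05 (SE 0.194). Over the 14 tested H2A genes the median was 0.06, and 11 changes were positive.

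Of the H2B genes, Hist1h2be measured 42.8, 78.9, 71.9, 77.8, 52.7 and 63.0, a change of 0.05 (SE 0.261). Hist1h2bg measured 38.6, 47.1, 38.2, 47.9, 30.3 and 40.8, a change of 0.02 (SE 0.163). Hist1h2bn measured 39.9, 47.4, 38.4, 49.3, 20.9 and 38.1, a change of -0.13 (SE 0.248). In Hist1h2bn the 5 libraries other than KO 4 lay within 38.1 to 49.3, and KO 4 alone lay below them. Only 13.6% of its 50-base stretches were unique. The 16 tested H2B genes had a median of 0.01, with 9 positive.

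H3 and H4 form the tetramer at the centre of the nucleosome, and both carry arginines that PRMT5 is known to methylate. Hist1h3f measured 40.3, 86.6, 72.7, 83.6, 46.2 and 64.0, a change of 0.04 (SE 0.324). Hist1h3e measured 38.8, 76.3, 62.0, 78.8, 41 and 60.6, and Hist1h3c 15.3, 33.2, 24.9, 29.6, 12.2 and 25.7. In all 3 genes WT 1 and KO 4 were low and close to each other, with the other 4 libraries well above. The changes of the latter pair were 0.11 (SE 0.306) and -0.05 (SE 0.382), and the 10 tested H3 genes had a median of -0.02.

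Hist1h4d measured 109.9, 163.3, 163.1, 167.5, 131.1 and 143.6, a change of 0.04 (SE 0.192). Hist1h4c measured 60.7, 105.2, 114.4, 126.3, 93.7 and 95.8, and Hist1h4h 46.9, 93.3, 105.5, 101.3, 74.8 and 96.4, with changes of 0.19 (SE 0.26) and 0.15 (SE 0.301). WT 1 was the lowest library in all 3 genes. All 13 H4 changes were positive, beside 54.4% of all genes, with a median of 0.10, and none passed the test, while 1 of 13 was positive with ERCC scaling, 1 of 13 without WT 1 and 1 of 13 without KO 1. Without WT 1 the change of Hist1h4c was -0.04, that of Hist1h4h -0.13 and that of Hist1h4d -0.13.

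The members of smallest p in each direction were low genes, and none is a call (limma adjusted p = 1). Upward they were Hist2h2be with 0.19 (SE 0.162), Hist2h2aa2 with 0.43 (SE 0.395), Hist2h2ab with 0.25 (SE 0.232) and Hist1h4m with 0.91 (SE 0.923). Downward they were Hist1h2bp with -0.22 (SE 0.283), Hist1h2af with -0.21 (SE 0.316), Hist1h3b with -0.18 (SE 0.268) and Hist1h3g with -0.21 (SE 0.313). Hist2h2be, whose message is known to be made also in a polyadenylated form, measured 7.5, 7.7, 9.7, 10, 10.8 and 8.7. KO 4 was its highest library. Hist2h2aa2 measured 0.5, 0.9, 1.1, 1.6, 1.0 and 1.3, Hist2h2ab 3.1, 5.4, 4.6, 5.5, 5.2 and 4.9, and Hist1h2bp 2.5, 3.3, 2.7, 2.9, 1.4 and 2.4. In Hist2h2aa2 and Hist2h2ab WT 1 was the lowest library, and in Hist1h2bp KO 4. Hist1h2af measured 7.6, 10, 6.3, 8.3, 3.0 and 7.6, Hist1h3b 14.2, 17.0, 15.9, 16, 8.3 and 17.2, and Hist1h3g 8.4, 12.8, 9.8, 10.3, 4.8 and 11. In these 3, KO 4 alone was far below the rest, and without it the changes were 0.07, 0.07 and 0.06.

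Hist1h4m was the exception in its spread. It measured 0.9, 7.3, 1.2, 5.3, 0.6 and 10.1 FPM, so that each group and each series held both a low and a high library. Only 10.2% of its 50-base stretches were unique. When WT 1 and KO 4 were both left out, an alternative added after the values were seen, it was the 1 member called (log2 change 1.11, SE 0.208, limma adjusted p = 6.61e-05). In that fit 0.668% of 14068 genes were called higher in KO and 0.0711% lower, 104 genes together. The fit has 1 residual degree of freedom, and KO 1 lay below WT 2 for this gene while KO 5 lay above WT 4. Without either library alone, 0 members and 0 of all genes were called.

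What the histone genes showed was a difference between libraries that cut across the groups. Of the 58 tested members, 32 had their lowest value in KO 4 and 26 in WT 1, and in none was another library the lowest. Over all genes tested the shares were 18.6% for KO 4 and 46% for WT 1, so the count for WT 1 is near the background and the count for KO 4 is above it. The 2 libraries were singled out after their values were seen, and no test is given for them. The highest value lay in KO 1 in 29 members and in WT 2 in 19, both of series 22, beside 20.4% and 6.22% of all genes. Since WT 1 belongs to series 22 and KO 4 to series 24, the sign of KO minus WT turned with the series: the median of the members was 0.37 within series 22 and -0.31 within series 24, and 53 of 58 were positive in the first and negative in the second, against 54.3% of all genes. The interaction of genotype and series was called in 0 members and in 0% of all genes (smallest limma adjusted p of a member 0.678), and at an unadjusted p under 0.05 in 0 members and 2.47% of all genes.

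**Figure D3:**
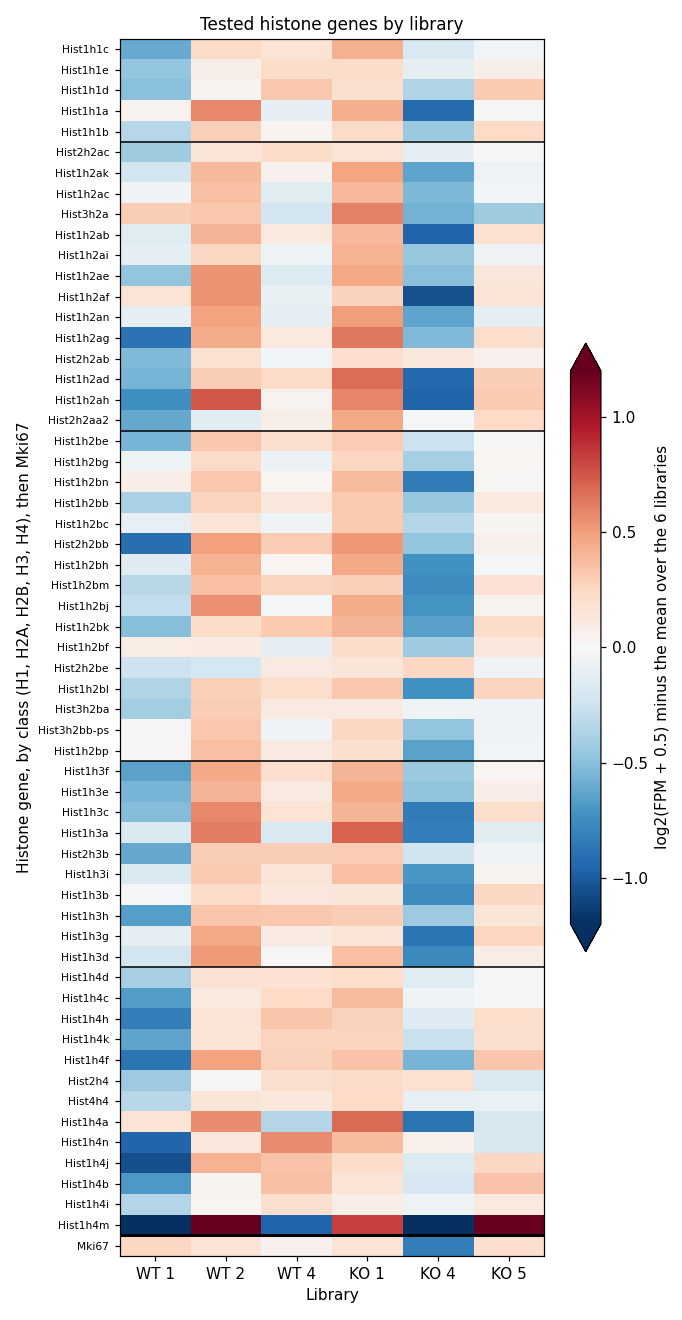
Log2(FPM + 0.5) of each tested histone gene minus its mean over the 6 libraries, by class, with Mki67 in the bottom line; the colour scale ends at ±1.2 and Hist1h4m lies beyond it. In the deposited scaling the WT 1 and KO 4 columns hold nearly all of the low values, WT 1 most evenly in H4 and KO 4 in H2A, H2B and H3, and Mki67 is low in KO 4 only.

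As deposited, the classes differed in which library was low. H4 was lowest in WT 1 in 11 of 13 genes and H1 in 3 of 5, but with ERCC scaling H4 was lowest in WT 1 in 2 genes and in KO 4 in 9, and H1 in KO 4 in 5 of 5. H2A was lowest in KO 4 in 10 of 14 genes, H2B in 12 of 16 and H3 in 6 of 10, and with ERCC scaling in 12, 15 and 10. As a share of all histone fragments, H4 made up 31.8% in KO 4, beside 26.3% to 30.0% elsewhere, and H3 stood at 10.7% there beside 12.7% to 14.5% elsewhere. The stem forms follow the classes: genes with a GGCCC or GGTCC stem, such as Hist1h4d and Hist1h4j printed above, had a median KO 4 level of 0.80 of the other series 24 libraries, and those with a GGCTC stem 0.65. Among the members every stem of the first kind belongs to H4, so within them stem and class cannot be told apart. H2afx, which has such a stem and is no H4 gene, had a KO 4 level of 0.552.

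Levels of KO 4 were set against the geometric mean of WT 4 and KO 5, and those of WT 1 against WT 2 and KO 1, on the log2(FPM + 0.5) scale. The KO 4 ratio had a median of 0.676 over the members and 0.953 over all genes, and 39 of 58 members lay under 0.75, as did 10.5% of all genes. By class its median was 0.668 in H1, 0.706 in H2A, 0.65 in H2B, 0.603 in H3 and 0.743 in H4. The exceptions above 1 were Hist2h2be (1.17), Hist2h4 (1.13) and Hist2h2ab (1.09), 3 genes chosen here after their values were seen. They lie on chromosome 3, as do Hist2h2aa2 (0.884), Hist2h2ac (0.86), Hist2h3b (0.777) and Hist2h2bb (0.631), the other tested members there, which lay below 1. The WT 1 ratio had a median of 0.635 over the members and 0.919 over all genes, and all 58 members lay under 1, as did 64.6% of all genes. In this library H4 (0.554) and H3 (0.546) were the lowest classes and H2B (0.658) the highest.

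Mki67, the proliferation marker given for comparison, was low in KO 4 and not in WT 1. It measured 120.1, 112.7, 104.2, 113.2, 56.4 and 116.0 FPM, and its log2 change was -0.20 (SE 0.256), -0.04 within series 22 and -0.36 within series 24. The KO 4 value was 0.515 of the other series 24 libraries, lower than the ratio of 49 of the 58 members. The WT 1 value was 1.06 of the other series 22 libraries, higher than that of all 58. The ratio of all histone fragments to Mki67 therefore ran from 11.8 in WT 1 through 20.6, 20.7, 21.7 and 17.2 in WT 2, WT 4, KO 1 and KO 5 to 27.6 in KO 4. For H1 it was 3.63 in WT 1 and 9.37 in KO 4, and for H4 3.11 and 8.78. The lowest ratio to Mki67 lay in WT 1 for 51 of 58 members and for 58.7% of all genes, and the highest in KO 4 for 31 members and for 85.8% of all genes. The direction of the ratio in these 2 libraries was thus shared by most genes. In bulk samples, fewer cells in S phase and less histone RNA per cell cannot be told apart.

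**Figure D4:**
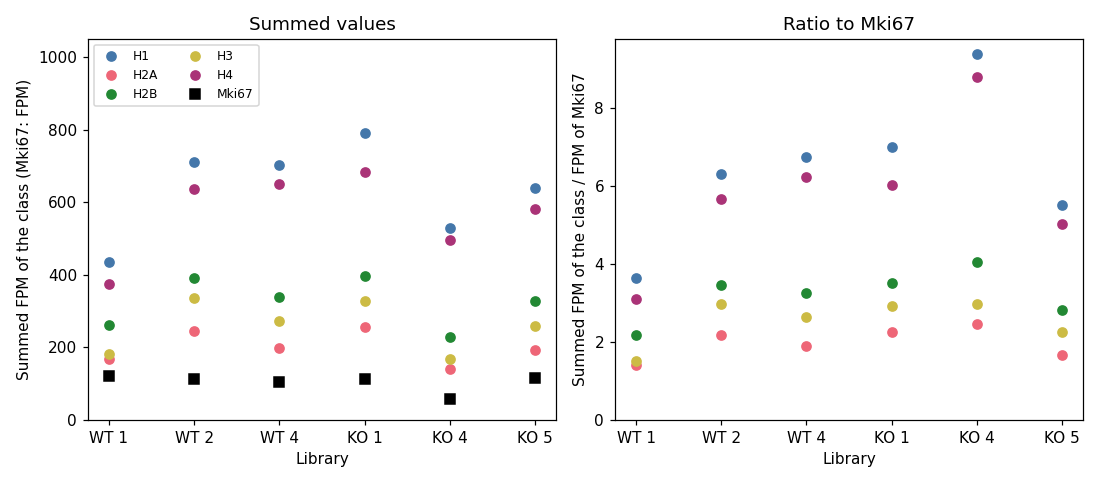
Left, summed FPM of each histone class and FPM of Mki67 in each library; right, the class sums divided by Mki67, both on linear axes from 0. In the deposited scaling the WT 1 sums are low with Mki67 at the level of the other libraries, and in KO 4 both are low, so the ratio is lowest in WT 1 and highest in KO 4.

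Other genes of DNA replication and the cell cycle gave another comparison. In a list of 34, Mki67 included, 24 had their lowest value in KO 4, with a median KO 4 ratio of 0.851, and 31 lay under 1. Their WT 1 ratio had a median of 0.937, close to that of all genes. Rrm2, a subunit of ribonucleotide reductase that supplies DNA precursors, measured 13.6, 14.4, 11.8, 13.3, 5.5 and 12.4. Top2a, the topoisomerase of dividing cells, measured 69.5, 71.1, 72.2, 74.8, 40.4 and 75.6. Both were picked after their values were seen, and in both KO 4 lay far below 5 libraries that were close together, WT 1 among them. By the naming rule, Pcna, the clamp of the replication fork, measured 192.7, 257.4, 170.0, 276.0, 148.3 and 142.2, and Dnmt1, the maintenance DNA methyltransferase, 185.3, 207.1, 234.4, 221.5, 254.6 and 226.0. Mcm10, a replication initiation factor, measured 7.5, 7.7, 4.9, 5.7, 3.3 and 5.5, and Tk1, thymidine kinase, 7.6, 9.0, 7.1, 6.7, 4.4 and 8.0. As deposited, Pcna and Dnmt1 were not low in KO 4 relative to series 24, unlike Mcm10 and Tk1. KO against WT, 0 of the 34 were called (limma), 16 changes were positive and 18 negative, and the median was -0.0043.

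**Figure D5:**
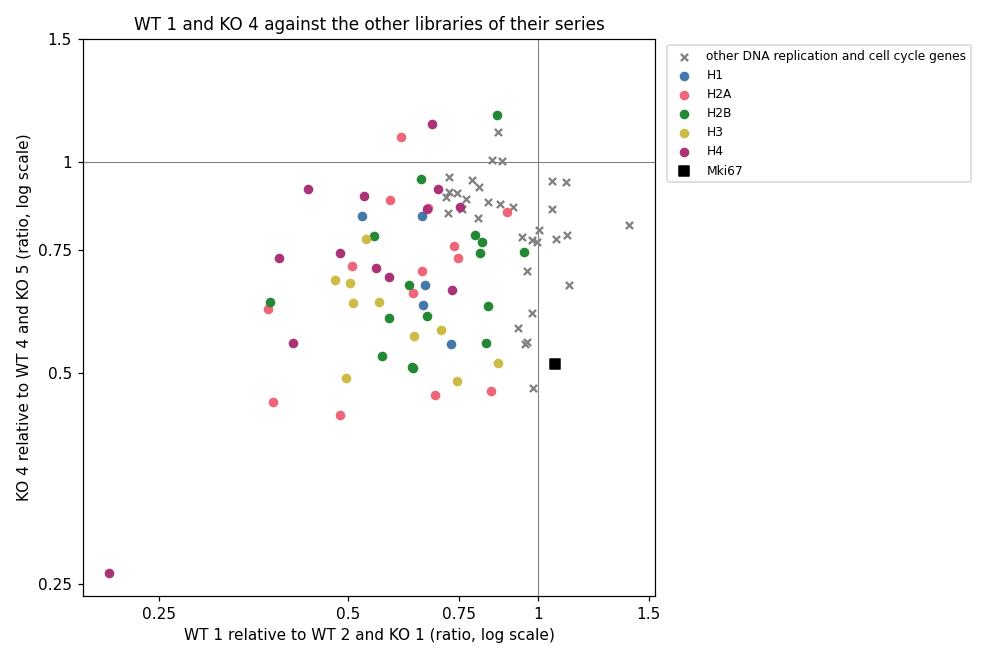
Ratio of KO 4 to WT 4 and KO 5 (vertical, log axis) against the ratio of WT 1 to WT 2 and KO 1 (horizontal, log axis), on the log2(FPM + 0.5) scale, for the 58 tested histone genes by class, the other genes of the replication and cell cycle list, and Mki67. In the deposited scaling all histone genes lie left of 1 (30 of 58 with ERCC scaling) and 55 lie below 1, while Mki67 lies at 1.06 and 0.515.

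The size of the dip in each library depended on the scaling, and these alternatives were chosen after the values were seen. With total-sum scaling 30 members were lowest in KO 4 and 28 in WT 1, and with median-of-ratios scaling 32 and 26. Scaled to the ERCC spike-in RNAs, 51 were lowest in KO 4, 5 in WT 2 and 2 in WT 1. The median WT 1 ratio of the members was then 0.995, with 30 of 58 under 1, beside 1.44 for all genes, and the median KO 4 ratio 0.457, beside 0.65. A scaling multiplies a whole library, so it cannot change the members' ratios relative to those of all genes. The spike-in share itself ran from 0.752% of all fragments in WT 1 to 1.59% in WT 2.

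Other measures also moved with these libraries, and their part in the result was not tested. The B cell markers summed to 330.6 in KO 4 and 480.3 to 711.8 elsewhere, with 3 of 6 tested markers lowest there. Markers of neutrophil precursors summed to 8.7 in KO 4 and 20.1 to 93.1 elsewhere, with 4 of 6 lowest there. KO 4 thus held the least of both. The plasma and germinal centre markers summed to 130.7 in WT 1 and 131.2 in KO 4 against 162.5 to 237.9 elsewhere. The T cell activation markers were at 446.2 in KO 4 and 549.0 to 761.5 elsewhere. In the activation list WT 1 summed to 615.7, below 728.8 in WT 2 and 761.5 in KO 1 and above all series 24 libraries. The median WT 1 ratio was 0.821 in the activation list and 0.898 in the plasma cell list, beside 0.919 for all genes. Myeloid markers were lowest in WT 1, with 171.3 against 269.3 to 1108.4 in the other libraries. Thymocyte markers ran from 49.7 to 69.4, the erythroid list from 71.6 to 101, with 4 of its 9 genes at 0, and the CD8 T and NK cell list from 71.8 to 100.7. Cd1d1 made up most of the thymocyte sum and Tfrc most of the erythroid sum in every library. Rag1, Rag2 and Arpp21 were highest in WT 1, with 3.0, 1.3 and 9.1 FPM. Cd1d1 and Dntt were lowest there, and Ptcra was at 0 to 0.1 throughout. Gene length was checked because 44 tested members have under 1000 bases of exon. The 1192 other tested genes of that length had a median WT 1 ratio of 0.887 and a median KO 4 ratio of 0.956, beside 0.635 and 0.676 for the members.

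Between the library series, both genotypes together, 0 members were called (limma), where 0.00669% of all genes were called higher in series 24 and 0.134% lower. At an unadjusted p under 0.05 the members numbered 6 of 58, where 8.81% of all genes passed. In 5 members every series 24 value lay below every series 22 value, a pattern of 6.14% of all genes: Hist1h1a, Hist3h2a, Hist1h2bn, Hist3h2bb-ps and Hist1h4a. In 0 members did series 24 lie above, which 14.3% of all genes did. The H4 gene Hist1h4a measured 29.4, 38.8 and 42.2 in WT 1, WT 2 and KO 1 and 20.4, 14.0 and 22.8 in WT 4, KO 4 and KO 5, a log2 difference of -0.96 (limma adjusted p = 0.274). Hist3h2a, on chromosome 11, measured 24.2, 24.6 and 30.0 in series 22 and 16.6, 13.1 and 14.5 in series 24, a difference of -0.82 (limma adjusted p = 0.155). Both were called when WT 1 alone was left out (limma adjusted p = 0.035 for Hist1h4a and 0.0406 for Hist3h2a), a fit in which 0.652% of all genes were called lower. Without WT 1 and KO 4 together, 6 members were called lower, beside 2.35% of all genes lower and 3.77% higher: Hist1h1a, Hist3h2a, Hist1h2an, Hist1h3a, Hist1h4a and Hist1h4m. The exon of Hist3h2a overlaps Trim17 on the same strand, so its value is uncertain. The median difference of the 58 was -0.17 and of all genes 0.06, with -0.41 in H2A and 0.08 in H4.

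The factors that make and cut histone messages stayed closer to the other libraries in KO 4, with a median KO 4 ratio of 0.985 over 26 genes and a median WT 1 ratio of 0.84. Slbp, which binds the stem-loop printed above, measured 68.7, 76.4, 64.8, 84.0, 57.8 and 60.4, a log2 change of 0.04 (SE 0.126), with every series 24 value below every series 22 value. Npat measured 73.9, 74.2, 76.9, 75.6, 71.8 and 69.0, a change of -0.05 (SE 0.108), and Casp8ap2, a protein of the histone locus body also called FLASH, 106.5, 114.6, 119.6, 109.3, 105.4 and 108.6, a change of -0.09 (SE 0.108). In the deposited scaling Npat thus moved little across the libraries, and its part in the histone values was not tested. Lsm11 measured 17.7, 21.3, 32.1, 24.4, 29.9 and 27.1, a change of 0.08 (SE 0.156). Lsm10 measured 4.7, 8.4, 8.2, 9.4, 11 and 8.7, a change of 0.39 (SE 0.234), and was the 1 gene of this list with all KO values above all WT values. Both proteins belong to the U7 particle, whose assembly is known to involve the PRMT5 complex. In this list 17 changes were positive and 9 negative, the median was 0.04, and 0 were called (limma adjusted p = 1). Zfp473, a U7-associated zinc finger protein, measured 5.6, 2.4, 1.8, 1.3, 2.3 and 1.3, a change of -0.63 (SE 0.42), and Fip1l1, a polyadenylation factor, lay between 122.7 and 137.4 in all libraries.

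Histone genes that are expressed outside S phase were compared next. These replication-independent histones numbered 9 tested of 11, with 8 positive changes, 1 negative and a median of 0.14, and with ERCC scaling and without KO 1 the split was 1 and 8. Of these genes 0 were called and 0 had an unadjusted p under 0.05 (limma adjusted p = 1). H3f3a and H3f3b, which both encode H3.3, measured 195.6, 259.9, 264.4, 291.6, 257.3 and 242.3 and 499.8, 661.0, 546.2, 814.6, 461.6 and 501.5. H2afz, the gene of H2A.Z, measured 92.5, 121.2, 105.6, 135.1, 88.5 and 103.0. H1f0, the linker histone of resting cells, measured 19.3, 22.3, 30.4, 31.4, 26.2 and 32.5, and H2afj 37.6, 46.2, 58.0, 55.8, 59.6 and 56.6. WT 1 was the lowest library in H3f3a, H1f0 and H2afj, and KO 4 in H3f3b and H2afz. The list had a median WT 1 ratio of 0.734 and a median KO 4 ratio of 0.895, the latter nearer to that of all genes than the replication-dependent genes were. The exception was H2afx, the list's gene with a stem-loop, singled out after its values were seen. It measured 12.6, 23.3, 16.8, 20.7, 9.3 and 17.7, with ratios of 0.583 in WT 1 and 0.552 in KO 4, both within the range of the replication-dependent genes.

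Members known to be made also as polyadenylated messages were Hist1h1c, Hist1h2bc, Hist2h2be and Hist4h4. Their 4 changes were positive, with a median of 0.13, and 0 of 4 were positive with ERCC scaling or without KO 1. Their median KO 4 ratio was 0.877 and their median WT 1 ratio 0.744, both nearer to 1 than the medians over all members, in a list of only 4 genes. Genes of histone chaperones, which carry histones to DNA, numbered 20, with 9 positive and 11 negative changes, a median of -0.01 and 0 called (limma adjusted p = 1). Among them Atrx, a remodeller that deposits H3.3, measured 608.2, 560.1, 604.5, 544.4, 532.8 and 560.7, a change of -0.12 (SE 0.103). Nap1l4 measured 161.4, 197.8, 217.7, 213.8, 205.8 and 195.7, and Rbbp7, which binds H4, 74.2, 85.0, 92.3, 97.1, 104.1 and 84.4. In the deposited scaling neither Nap1l4 nor Rbbp7 followed the fall of the histone genes in KO 4. Over the 20 chaperone genes the median KO 4 ratio was 0.923, beside 0.953 for all genes. KO 4 was the lowest library in 8 of the 20, beside 18.6% of all genes.

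Promoters are shown because members moved together across libraries. RefSeq (GRCm38.p6) gave a start site for 62 of the 70 members, and the 250 bases before it were searched on both strands for 4 motifs. The first was ATTTGCAT, known as the octamer. The next was CCAAT, bound by the factor NF-Y. A TATA box was searched as TATAAA. The last, AAACACA, is an element described in H1 promoters. Each motif was counted on its own, whether or not it overlapped another, and neighbouring divergent genes share part of a window. The octamer stood in 13 members, 7 of 18 H2A and 6 of 16 H2B genes and no H1, H3 or H4 gene, and in 1.6% of 32851 promoters of the same length. CCAAT stood in 51, all the H1, H2A and H2B genes but 3 of 12 H4 genes, against 33.8% of all promoters. TATAAA stood in 29 against 12.4%, and AAACACA in 9 against 6.25%, 5 of them among the 6 H1 genes. A match describes letters and is not evidence of binding.

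One gene of high value in each of 4 classes is printed, 5′ to 3′ on the gene's strand up to the base before the start, with motif matches in capitals (ATTGG and ATGCAAAT are CCAAT and the octamer on the other strand). They are Hist1h1c (chr13:23738557-23738806, plus), Hist2h2ac (chr3:96220881-96221130, minus), Hist1h2bg (chr13:23571150-23571399, plus) and Hist1h4d (chr13:23581318-23581567, plus).
Hist1h1c: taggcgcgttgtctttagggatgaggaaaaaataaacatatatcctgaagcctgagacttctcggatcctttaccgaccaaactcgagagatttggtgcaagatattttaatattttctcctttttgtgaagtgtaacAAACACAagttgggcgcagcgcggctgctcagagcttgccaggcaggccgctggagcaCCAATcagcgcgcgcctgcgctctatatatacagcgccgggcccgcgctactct
Hist2h2ac: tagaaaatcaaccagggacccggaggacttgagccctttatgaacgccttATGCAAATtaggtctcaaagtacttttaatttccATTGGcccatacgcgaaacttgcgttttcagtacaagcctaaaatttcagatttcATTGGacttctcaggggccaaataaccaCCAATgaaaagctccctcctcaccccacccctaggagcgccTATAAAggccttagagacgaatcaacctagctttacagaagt
Hist1h2bg: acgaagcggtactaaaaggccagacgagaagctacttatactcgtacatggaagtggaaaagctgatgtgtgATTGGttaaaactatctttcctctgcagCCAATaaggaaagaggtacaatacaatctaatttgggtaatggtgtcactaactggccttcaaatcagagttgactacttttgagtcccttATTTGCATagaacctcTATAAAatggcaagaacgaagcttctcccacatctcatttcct
Hist1h4d: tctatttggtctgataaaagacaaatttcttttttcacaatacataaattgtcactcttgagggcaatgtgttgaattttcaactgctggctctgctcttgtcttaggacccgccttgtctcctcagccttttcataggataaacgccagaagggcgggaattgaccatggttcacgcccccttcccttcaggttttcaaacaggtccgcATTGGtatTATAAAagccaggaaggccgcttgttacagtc
In Hist1h1c, AAACACA ended 105 bases and CCAAT 49 bases before the start. In Hist1h2bg the octamer ended 51 and TATAAA 37 bases before it. In Hist2h2ac TATAAA ended 36 bases before the start and the octamer 192 bases, in a window that reaches the start of its divergent neighbour Hist2h2be. In Hist1h4d CCAAT ended 35 and TATAAA 26 bases before the start. Of these 4 genes, which differ in their motifs, Hist1h1c, Hist2h2ac and Hist1h4d were lowest in WT 1 and Hist1h2bg in KO 4.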

How the data were processed

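RNA was measured in 6 libraries of mouse CD4 T cells, 3 WT and 3 KO for Prmt5, from total RNA depleted of ribosomal RNA, per the labels. STAR, featureCounts, DESeq, DESeq2 and the genome build GRCm38.p3 appear in the submitters' processing notes, with no version, role or order. Values were deposited by the authors as robust FPM, treated here as RPM: fragments per gene, scaled by size factors and rounded to 1 decimal, so they are not counts and the depth is unknown. Gene sums per library ran from 857334 to 954014. The table held 54624 rows, 92 of them ERCC spike-in RNAs, which were left out of the tests, and 54409 of the 54532 genes matched a GENCODE M21 symbol. The names of another 6 columns fitted no sample, and these columns were left out.

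Testing was limited to the 14944 genes with a mean of 1 or more. Values were taken as log2(FPM + 0.5), which understates the change of low genes. All were fitted together on genotype and library series with limma 3.58.1 in R 4.3.3 (moderated two-sided test, mean-variance trend, Benjamini-Hochberg adjustment over all genes, called below 0.05) and tested on simulated data. All adjusted p-values come from limma, and none is adjusted over the histone genes alone. Members, gene lists and the naming rule were chosen with earlier results of these data known. Named were the 3 members of highest mean in each class, any member called, the 4 of smallest p in each direction, Mki67, Prmt5, Slbp, Npat, Casp8ap2, Lsm10, Lsm11, H2afz, H3f3a, H3f3b and H1f0, and from each list described the 2 genes of smallest p and the 2 of highest mean. Lists covered histone message processing, replication-independent histones, histone chaperones, replication and cell cycle, the PRMT5 complex, histone genes that are also polyadenylated, T cell activation and markers of 7 other cell types and of CD4 T cells. Stem-loops and shared 50-base stretches were searched in GENCODE M21 transcripts, and promoters are from RefSeq (GRCm38.p6). Alternatives changed the pseudocount, filter, scaling, model and libraries. Plots were made in Python 3.11.15 with matplotlib 3.10.9.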

Additional observations from a re-analysis of the deposited data

How the results depend on the processing

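Of 17 alternatives, all left the histone genes without a call between KO and WT except that without WT 1 and KO 4 together. That alternative was chosen after the data were seen. The direction of small changes turned when single libraries were left out. For KO 1 or WT 4 this also removes the comparison of genotypes within the library's series. The depth is unknown, so counting error is not given, and near-identical genes limit values gene by gene. The median change of the members, 0.05 as reported, was -0.31 without KO 1, -0.15 without WT 1, 0.19 without KO 4 and 0.37 without WT 4. Scaled to the ERCC RNAs it was -0.17, with the median of all genes shifted to -0.20. The members' median level varied between libraries of a group with an SD of 0.449. That SD describes single libraries and includes the low WT 1 and KO 4, so it is no test of these shifts.

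Counts of genes called between KO and WT were 0 without any 1 library and 104 without WT 1 and KO 4, and for histone genes 0 and 1. Histone genes called between the series numbered 0 to 6, with 2 without WT 1 alone. With the replicate number as a block (replicate block), 5 genes were called and 0 of them histone genes, and the changes of Hist1h2ak and Hist1h2bg were 0.0091 and -0.011. The numbers 1 and 4 are the only ones both groups share. WT and KO libraries differ in genotype, so the block is no pairing by animal. Deviations across genes had r = -0.16 for WT 1 and KO 1 and -0.41 for WT 4 and KO 4. These values cannot tell whether libraries of the same number were handled together.

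Signs turned, for values that never passed the test, as follows, and the cause was not tested. Without the series term the log2 changes were Pcna -0.18, Slbp -0.071, Fip1l1 0.014, Hist1h3f -0.013, Hist1h2bg -0.075 and Hist1h2ac -0.12. They were Fip1l1 0.031 and Hist1h2ak 0.027 with total-sum scaling, and Fip1l1 0.035 and Hist1h2ak 0.030 with median-of-ratios scaling. With ERCC scaling they were H3f3a -0.075, Pcna -0.18, Hist2h2ac -0.20, Hist2h2be -0.025, H2afz -0.12, Slbp -0.18, H2afj -0.0089, Nap1l4 -0.15, Dnmt1 -0.11, Lsm11 -0.14, H3f3b -0.060, Hist1h4h -0.069, Hist1h3f -0.18, Hist1h1d -0.18, Hist1h3e -0.11, Hist1h2bg -0.19, Hist1h4d -0.18, Hist1h2be -0.17, Hist1h1e -0.13, Hist1h2ac -0.17, Hist1h4c -0.026, Hist1h1c -0.050 and Rbbp7 -0.064. With libraries left out, the ranges of the histone genes were Hist2h2ac -0.27 to 0.30, Hist2h2be -0.00055 to 0.37, Hist1h2ak -0.40 to 0.39, Hist1h2bn -0.44 to 0.18, Hist1h2bp -0.45 to 0.010, Hist1h4h -0.31 to 0.61, Hist1h2af -0.45 to 0.070, Hist1h3g -0.42 to 0.062, Hist1h3f -0.42 to 0.50, Hist1h1d -0.34 to 0.42, Hist1h3e -0.31 to 0.53, Hist1h2bg -0.12 to 0.17, Hist1h4d -0.25 to 0.32, Hist1h2be -0.32 to 0.42, Hist1h1e -0.24 to 0.42, Hist1h2ac -0.15 to 0.24, Hist1h4c -0.27 to 0.66, Hist1h1c -0.28 to 0.62, Hist1h3c -0.48 to 0.38 and Hist1h3b -0.39 to 0.071. Those of the other genes were H3f3a -0.082 to 0.37, Pcna -0.23 to 0.31, H2afz -0.14 to 0.35, Slbp -0.13 to 0.21, Fip1l1 -0.049 to 0.049, Mki67 -0.40 to 0.080, Nap1l4 -0.12 to 0.26, Npat -0.13 to 0.030, Lsm11 -0.17 to 0.32, H3f3b -0.18 to 0.50 and H1f0 -0.058 to 0.59.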

Other observations

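Other lists measured for the check of the cells gave 0 calls between KO and WT (limma), and Prmt5 was their 1 gene with an unadjusted p under 0.05. Of 6 genes of the PRMT5 complex (the methylosome) 5 were tested, with 2 positive changes, 3 negative and a median of -0.03, and 0 positive and 5 negative with ERCC scaling or without KO 1. The 10 CD4 T cell markers gave 9 positive changes and 1 negative with a median of 0.09, but 0 positive and 10 negative with ERCC scaling and 1 and 9 without KO 1. The 10 tested T cell activation genes gave 7 and 3 with a median of 0.03, but 0 and 10 with ERCC scaling or without KO 1, and 1 and 9 without WT 1. All 8 tested myeloid markers had positive changes, with a median of 0.47. Without KO 1, 4 were positive and 4 negative, with a median of -0.02, in a fit that compares the genotypes within series 24 only. Without WT 1, the lowest library in 7 of the 8, all 8 were positive, with a median of 0.25. The parts of KO 1 and of the WT libraries of series 22 cannot be told apart. With ERCC scaling 7 of 8 were positive, with a median of 0.25.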
